A study of Schizosaccharomyces pombe with 384 samples.

Results

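The transcripts of the 4 ammonium assimilation enzyme genes *gdh1*, *gdh2*, *glt1* and *gln1* of the fission yeast *Schizosaccharomyces pombe* were followed across 94 single-gene knockout strains and wild type. The 4 genes are 4 of the 7259 genes in the expression table. They were taken by name as a textbook pathway, and were selected on their CPM across these strains, which were known beforehand, so their levels, fold changes and calls against wild type are given as a description. The measurement was 3′ mRNA-seq, in which each polyadenylated transcript is read near its 3′ end, and a level is given in CPM, the reads of a gene scaled to a common library size.

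There were 384 libraries. Each of the 94 knockout strains came from a genome-wide deletion library with 1 strain per gene and had 4 libraries, labelled with replicate numbers 1 to 4, and wild type had 8, from wells A1 and A2. All strains, wild type included, were grown in YES, a rich yeast extract and glucose medium with adenine, histidine, leucine, uracil and lysine, at 32 °C for 2 days and, after a second inoculation, for another 12 to 14 hours. In all, 6 of the wild-type libraries carry the word knock-out in a description field, and were taken as wild type from the strain field, which reads wt1 or wt2. Between 1337710 and 2659644 reads per library fell on genes (median 1652486), and the lowest value of any of the 4 genes in any library rested on 38 reads. The transcript of the deleted gene itself was below all 8 wild-type libraries in 27 of the 94 strains, overlapped them in 53 and was above them in 14. Reads near a 3′ end can lie outside the deleted part, so this checks the labels only where the transcript is lower, and for every other strain a name such as *elp3*Δ stands for the libraries labelled with that deletion. The library is haploid, and its deletions carry resistance to geneticin. Other markers are not given in the sources used here.

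Ammonium enters amino acids by a pair of routes. The NADP-dependent glutamate dehydrogenase Gdh1 joins ammonium to 2-oxoglutarate and makes glutamate. In the other route the glutamine synthetase Gln1 joins ammonium to glutamate, and the glutamate synthase Glt1 passes the amide nitrogen of glutamine to 2-oxoglutarate. The NAD-dependent glutamate dehydrogenase Gdh2 works in the reverse direction, and releases ammonium from glutamate when amino acids serve as the source of nitrogen.

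*gdh1* (SPCC622.12c, chromosome III, 1419131 to 1421212, minus strand of ASM294v2) had between 220.3 and 312 CPM in the 8 wild-type libraries, with a mean of 250.5 ± 29.8 CPM (SD, n = 8). *gdh2* (SPCC132.04c, chromosome III, 1332569 to 1336197, minus strand) had 76.8 ± 18.3 CPM in wild type (SD, n = 8), between 56.2 and 113.8. *glt1* (SPAPB1E7.07, chromosome I, 3302875 to 3310369, plus strand) had 676 ± 119 CPM (SD, n = 8), between 519 and 797. *gln1* (SPAC23H4.06, chromosome I, 1596073 to 1598149, minus strand) had 987 ± 149.7 CPM (SD, n = 8), between 793 and 1180.3. In wells A1 and A2 the wild-type means were 251 and 249.9 CPM for *gdh1*, 71.3 and 82.4 CPM for *gdh2*, 709.8 and 643 CPM for *glt1*, and 1024 and 951 CPM for *gln1*. With well A1 alone as wild type *gdh2* was called lower in 10 strains, against 16 with both, and with well A2 alone *glt1* was called lower in 0, against 2.

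The sequences before the genes were searched because *gdh1* and *gln1* moved together across strains. Within the 250 bases before the gene start in RefSeq (ASM294v3), 6 short words were searched on both strands, and the words were chosen with these windows in view. GATAA and its extensions GATAAG and GATAAGA are the core of the sites of GATA factors, the family of Gaf1. TGACTC and TGACTCA are the core of the sites of Gcn4 in budding yeast, and TGACGT is that of ATF/CREB factors. GATAAG, which contains GATAA, occurred 3 times before *gdh1* and not before the other 3 genes, and 10.19% of 5112 protein-coding genes held it. GATAA was found 4 times before *gdh1*, 3 times before *gln1*, once before *glt1* and not before *gdh2*, and 54.2% of genes held it. GATAAGA matched once before *gdh1* and in 3.33% of genes. TGACTC occurred 2 times before *glt1* and once before *gln1*, and in 5.63% of genes. TGACTCA matched once before *glt1*, in 1.72% of genes, and TGACGT matched before none of the 4 genes, in 5.52%. Such a match is a run of letters and says nothing of a bound factor. The windows with the longer matches are shown 5′ to 3′ on the strand of the gene, with the match, in either orientation, in capitals.
gdh1, chromosome III 1421424 to 1421453: aagcaatgCTTATCTTATCtttatttggtt
gdh1, chromosome III 1421371 to 1421400: tgagggggttggCTTATCagatcggaaatt
glt1, chromosome I 3302593 to 3302622: cgtctcccctctGAGTCAcatgtcacccga
glt1, chromosome I 3302720 to 3302749: cgtggaaaatatTGACTCtttcgtgattgg
gln1, chromosome I 1598067 to 1598096: aagtgaaggcgcGAGTCAccttactcttct
The first *gdh1* window holds 2 matches that share 1 base. Both *gdh1* windows lie within the neighbouring gene *tti1*, and the *gln1* window lies within the transcript of *gln1* as the deposited table places its start. In RefSeq the windows also overlap noncoding RNA genes. These are SPNCRNA.7361 for *gdh1*, SPNCRNA.3477 and SPNCRNA.3478 for both *glt1* windows, and SPNCRNA.2710 for *gln1*.

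Across the knockout strains, *gdh1* was the gene of the 4 that was most often called lower than wild type. A transcript was called changed where its log2 fold change was at least 0.6 in size with p at most 0.005 in limma. *gdh1* was called lower in 30 of the 94 strains and higher in 1. Over all transcripts and strains, 1.47% of comparisons were called lower and 2.12% were called higher. The log2 fold change was below 0 in 83 strains for *gdh1* and for *gln1*, in 80 for *glt1* and in 56 for *gdh2*. The same count over all transcripts is not given here. For *gdh1* the median was -0.27. All 4 knockout libraries lay below all 8 wild-type libraries in 37 strains and above them in 2, and over all transcripts and strains this was so in 1.72% and 1.87% of comparisons. Of the 5021 transcripts tested in all 94 strains, 10, *gdh1* included, were called lower in 30 strains or more. Because the wild-type libraries are shared, the 94 comparisons are not independent of each other.

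**Figure D1:**
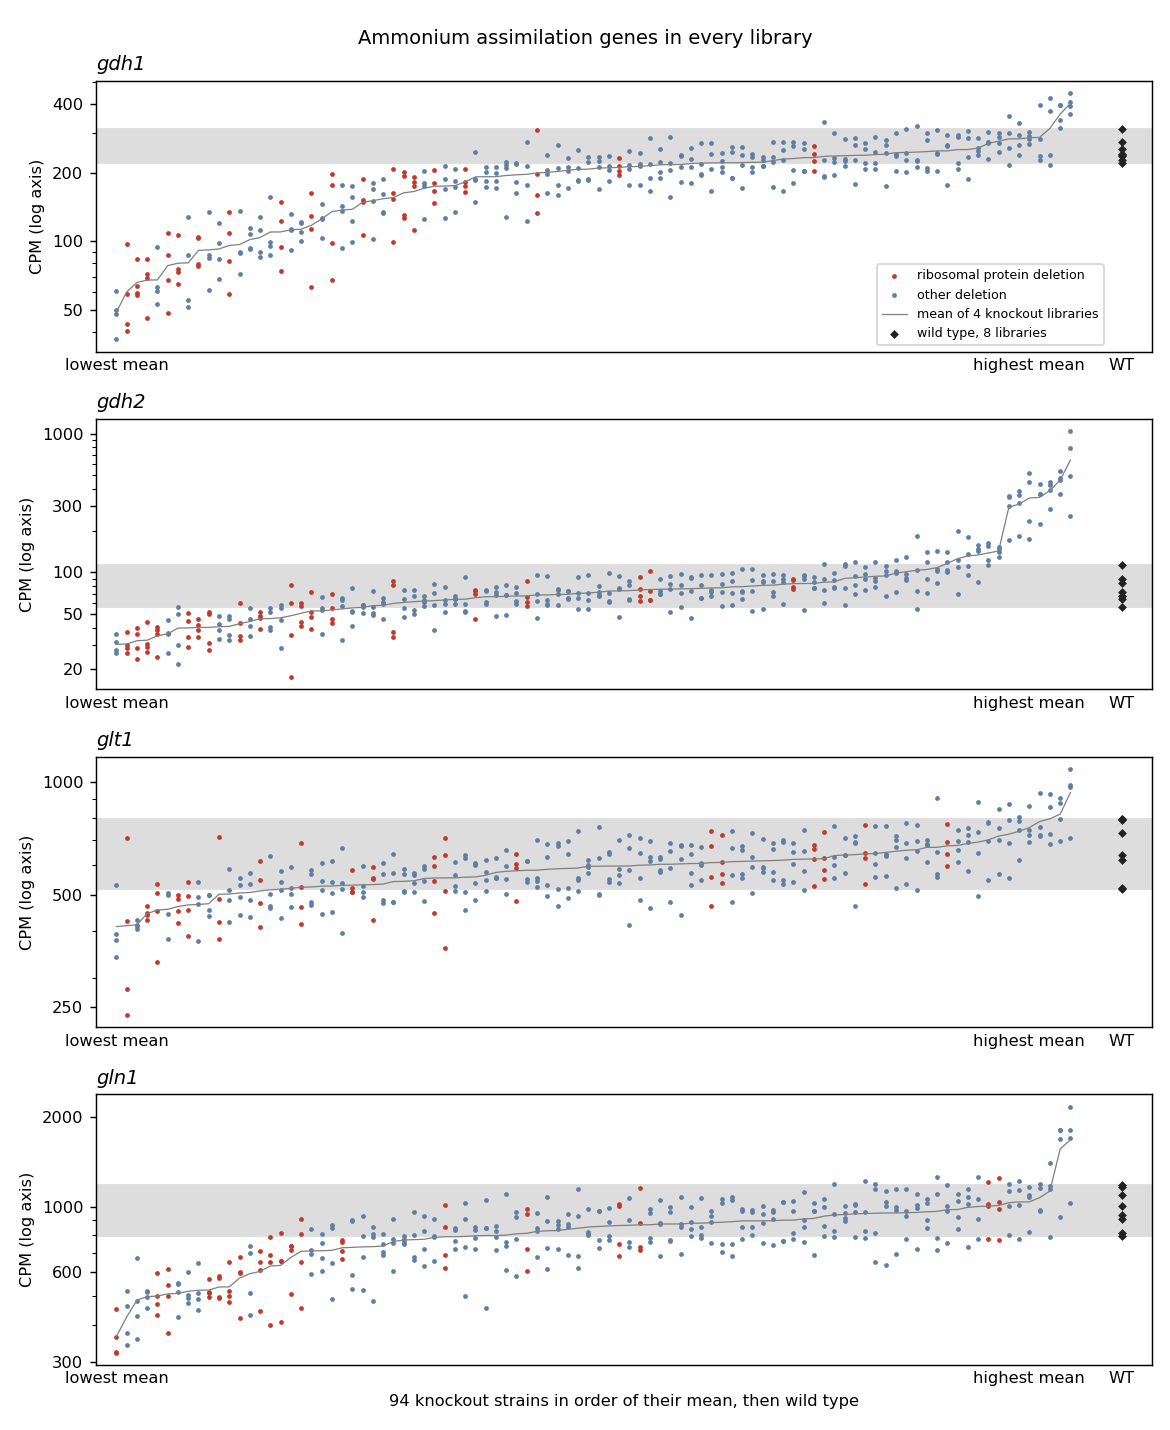
CPM (log axis) of *gdh1*, *gdh2*, *glt1* and *gln1* in every library, with the 94 knockout strains in order of their mean and the 8 wild-type libraries at the right; points are libraries, red for ribosomal protein deletions, the line joins the strain means, and the grey band spans the wild-type libraries. In *gdh1*, 37 strains have all 4 points below the band, and *gdh2* has 8 strains with all points above it.

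The lowest *gdh1* level was in *ssz1*Δ, which lacks an Hsp70-type chaperone that in budding yeast sits on the ribosome. It had 60.8, 37.2, 47.9 and 50.2 CPM in the 4 *ssz1*Δ libraries, against 220.3 to 312 CPM in wild type, and its log2 fold change was -2.37 ± 0.14 (SE). *rpl3801*Δ lacks a copy of the ribosomal protein L38, and had 58.9, 40.3, 43.6 and 97.3 CPM, with a log2 fold change of -2.14 ± 0.20. The 40.3 and 43.6 rest on the choice of the decimal point, and would be 403 and 436 at the other possible position. With that position the log2 fold change was -0.48 ± 0.43, and the call was lost. In *rpl501*Δ, a deletion of a copy of L5, *gdh1* had 58.0, 59.4, 83.3 and 63.5 CPM, and its log2 fold change was -1.93 ± 0.14. All libraries of these 3 strains lay below every wild-type library, and *gdh1* averaged 19.6%, 23.97% and 26.4% of wild type. Another decimal position was also possible for the 50.2 of *ssz1*Δ, at 502, and for the 63.5 of *rpl501*Δ, at 6.35. With decimal points placed without the strain, the log2 fold changes of *ssz1*Δ and *rpl501*Δ stayed at -2.37 and -1.93.

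The opposite change was in *moe1*Δ, which lacks subunit d of the translation initiation factor eIF3. *gdh1* had 410.2, 446, 391 and 363 CPM there, against at most 312 CPM in wild type, a log2 fold change of 0.69 ± 0.12. *moe1*Δ was also the only strain in which both glutamate dehydrogenase genes were called higher. The strains nearest to the threshold were *rpl3202*Δ, called lower at -0.62 ± 0.16, and *mcl1*Δ, not called at -0.56 ± 0.15.

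Deletions of ribosomal protein genes made up 14 of the 30 strains with lower *gdh1*. There were 19 such deletions among the 94 strains and 75 others. *gdh1* was called lower in 14 of the 19 and in 16 of the 75. Its median log2 fold change was -1.01 in ribosomal protein deletions and -0.21 in the others. These strains also had more changes in general, with 2.55% of all comparisons called lower in ribosomal protein deletions and 1.19% in the others. The 5 ribosomal protein deletions without a call were *rpl1602*Δ, *rpl3201*Δ, *rpl2101*Δ, *rpl29*Δ and *rpl39*Δ. The gene was below 0 on the log2 scale in all 19, and the strain means lay between 60.03 and 232.9 CPM, against 250.5 CPM in wild type.

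The same order of groups held within each plate, for which the replicate number stands. The median *gdh1* level in ribosomal protein deletions was 129.6, 163, 106.8 and 148.8 CPM on plates 1 to 4. In the other deletions it was 225.2, 236.7, 180.1 and 212.1 CPM, and in wild type it was 255 and 273 CPM in the single libraries of plates 1 and 2, and 232 and 240.1 CPM as the mean of 2 libraries on plates 3 and 4. The 2 wild-type libraries whose plate is not known had 220.3 and 312 CPM. The first of them is numbered 2 but stands among the libraries of number 1 in the order of the samples.

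**Figure D2:**
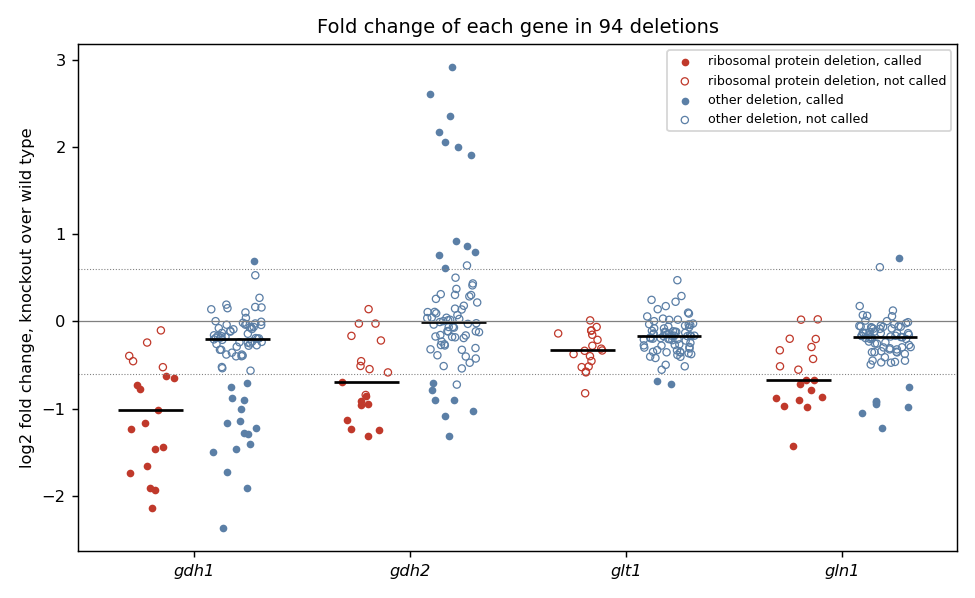
Log2 fold change of each gene, knockout over wild type, in 19 ribosomal protein deletions (red) and 75 other deletions (blue); filled points were called, black bars are medians and dotted lines mark 0.6 in size. The red points of *gdh1* and *gln1* have medians of -1.01 and -0.67, and those of *glt1* have a median of -0.33.

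In all, 5 strains lack a subunit of SAGA, a coactivator complex that acetylates histones, and were picked out after their values had been seen. In none of the 5 was the deleted gene's own transcript below wild type. *gcn5*Δ, *ada2*Δ and *ngg1*Δ remove the acetyltransferase and its module, and *gdh1* was called lower in these 3. Over all transcripts and all 94 strains 1.47% of comparisons were called lower, and the share within each of these strains is not given here. *gdh1* had 119.9, 98.4, 68.5 and 83.6 CPM in *gcn5*Δ, 114, 93.8, 92.2 and 107.4 CPM in *ada2*Δ, and 146, 126, 125 and 103.9 CPM in *ngg1*Δ. *spt7*Δ and *spt8*Δ remove other subunits of the complex, and were not called. They had 258, 239, 171.5 and 217 CPM and 264, 292, 177.5 and 263 CPM, and every library of the first 3 strains lay below every library of these. None of the 5 strains was called for *gdh2*, *glt1* or *gln1*, whose log2 fold changes there were between -0.54 and 0.11.

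*gdh2* had the widest range of log2 fold changes of the 4 genes, between -1.32 and 2.92, and its level was between 17.6 and 1041 CPM over all libraries. It was called lower in 16 strains and higher in 12, and its median log2 fold change was -0.09. Of the 5021 transcripts tested in every strain, 96 were called lower in at least as many strains, and 184 were called higher in at least as many. When the CPM were recomputed with the reads on genes as the library size, the calls turned to 9 lower and 15 higher, and the median of all transcripts moved by 0.13 on the log2 scale in the median strain, with a range over strains from -0.11 to 0.48.

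The highest *gdh2* levels were in the libraries labelled *elp3*Δ, a deletion of the catalytic subunit of Elongator, which modifies tRNA. They had 1041, 787, 495 and 256 CPM, against 56.2 to 113.8 CPM in wild type, with a log2 fold change of 2.92 ± 0.31. *cay1*Δ, which lacks a cactin homologue, had 479.9, 461, 541 and 365.3 CPM, a log2 fold change of 2.61 ± 0.18. *moe1*Δ had 428, 445, 392.5 and 289 CPM, a log2 fold change of 2.35 ± 0.19. All 12 of these libraries were above all wild-type libraries. Higher decimal positions were possible for the 1041 and 787 of *elp3*Δ, at 10413 and 7872 CPM or more. With decimal points placed without the strain its log2 fold change stayed at 2.92. The *elp3*Δ libraries also differed widely among themselves, with an SD of 342 CPM.

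A step in the order of strain means set 7 strains apart. In descending order of mean they were *elp3*Δ, *cay1*Δ, *moe1*Δ, *tcg1*Δ, *snz1*Δ, *swd3*Δ and *erg4*Δ, with means between 645 and 294.5 CPM. The next strain, *mhf2*Δ, averaged 142.9 CPM, and the libraries of *erg4*Δ and *mhf2*Δ did not overlap. This was the only one of the 93 steps between neighbouring *gdh2* means at which the libraries of both strains did not overlap, and *gdh1*, *glt1* and *gln1* had no such step. In *gdh1*, the libraries of *elp3*Δ and *tcg1*Δ overlapped wild type, with 271, 273, 231 and 300.3 CPM and 287, 293.6, 208 and 222 CPM.

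The lowest *gdh2* levels were in libraries labelled *pek1*Δ, a deletion of the kinase that activates the cell integrity MAP kinase. They had 35.8, 31.6, 26.4 and 27.8 CPM, and a log2 fold change of -1.32 ± 0.18. *rpl3801*Δ had 26.4, 28.7, 37.1 and 29.9 CPM, and *rpl1601*Δ had 39.9, 28.7, 36.3 and 23.96 CPM, with log2 fold changes of -1.31 ± 0.18 and -1.25 ± 0.19. All were below the lowest wild-type library. Higher decimal positions were possible for the 39.9 of *rpl1601*Δ, at 399 CPM or more. With decimal points placed without the strain its log2 fold change stayed at -1.25. In the *pek1*Δ libraries *gdh1* was not called, with 274, 223, 174 and 233 CPM. *gdh2* was called lower in 9 of the 19 ribosomal protein deletions and in 7 of the 75 others, against 2.55% and 1.19% of comparisons over all transcripts. Each of the 12 higher calls of *gdh2* was in another deletion. *ssz1*Δ lost its *gdh2* call with the plate as a block. Just inside the threshold were *rpl3602*Δ, called lower at -0.70 ± 0.18, and *dad3*Δ, called higher at 0.62 ± 0.18.

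*gdh1* shares its 3′ end with SPCC622.11 on the other strand over 94 bases, and its 5′ part with *tti1* on the same strand over 67 bases. *gdh2* shares 19 bases with SPCC132.03 on the other strand. Whether the reads were counted by strand is not stated, so reads in the overlaps could not be assigned with certainty. In *ssz1*Δ, SPCC622.11 averaged 11.7 ± 5.2 CPM against 12.5 ± 6.2 CPM in wild type, and *tti1* averaged 11.9 ± 5.2 CPM against 17.04 ± 3.54 CPM (SD, n = 4 and n = 8). SPCC622.11 was called in none of the 94 strains by limma, and in 0 had it an unadjusted p under 0.05, while its r with *gdh1* over the strain means of log2 CPM was 0.53. *tti1* was called lower in 2 strains, in 1 of them together with *gdh1*, and SPCC132.03 was called higher in 2. In the *elp3*Δ libraries SPCC132.03 averaged 76.8 ± 11.5 CPM, against 51.4 ± 7.7 CPM in wild type. *glt1* and *gln1* overlap no other gene of the table.

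*glt1* had the narrowest range of log2 fold changes of the 4 genes, between -0.82 and 0.47. It was called lower in 2 strains and higher in none by limma, with 24 lower and 1 higher at an unadjusted p under 0.05, and limma-voom called 3 lower and 0 higher. The 2 lower strains are 2.128% of the 94, near the 1.47% over all transcripts, and 956 of the 5021 transcripts were called lower in at least as many. Its median log2 fold change was -0.19. In *mcl1*Δ, which lacks a replication factor of the Ctf4 type, it had 341, 392.3, 532 and 378 CPM, against 519 to 797 CPM in wild type, with a log2 fold change of -0.72 ± 0.17. The replicate 3 library lay within the wild-type range. By their systematic names, SPAPB1E7.02c and SPAPB1E7.07, *mcl1* and *glt1* belong to the same stretch of chromosome I. An effect of the deletion on nearby genes was not tested. In the *pek1*Δ libraries *glt1* had 406, 428, 415 and 413 CPM, all below wild type, with a log2 fold change of -0.68 ± 0.15. *rpl3201*Δ stood just outside the threshold at -0.58 ± 0.14. The lowest single *glt1* library, at 239 CPM, was in *rpl1801*Δ, where the other 3 had 708, 280 and 426 CPM and the fold change of -0.82 ± 0.25 was not called.

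*glt1* also differed between plates. The 2 wild-type libraries of plate 4 had 519.5 and 519.2 CPM, and the other 6 had between 617 and 797. The median over knockout strains was 515 CPM on plate 4, against a wild-type mean of 519 CPM, and 556, 613.4 and 654 CPM on plates 1 to 3, against 731, 795 and 796 CPM. The wild-type values of plates 1 and 2 are single libraries, and the 2 libraries of well A2 with number 2, whose plate is not known, had 637.5 and 617 CPM. With the plate as a block 5 strains were called lower, and leaving out either of the plate 4 wild-type libraries gave 6. Leaving out knockout replicate 2 or 3 gave 4, and with the reads on genes as the library size, or with the 4 wild-type libraries of well A2 alone, none was called.

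*gln1* was called lower in 17 strains and higher in 1, with a median log2 fold change of -0.20. Over all transcripts and strains, 1.47% of comparisons were called lower and 2.12% higher. Of the 5021 transcripts tested in every strain, 85 were called lower in at least as many strains, and 1816 were called higher in at least as many. With the reads on genes as the library size *gln1* was called lower in 9 and higher in 2. *rpl1801*Δ, without a copy of L18, had the lowest level at 325, 363, 322 and 452 CPM, against 793 to 1180.3 CPM in wild type, and a log2 fold change of -1.43 ± 0.15. *ssz1*Δ had 464, 521, 376 and 341 CPM, with -1.22 ± 0.16. The libraries labelled SPBC16A3.17c had 359, 429, 669 and 480.1 CPM, with -1.05 ± 0.17. All 12 libraries were below all wild-type libraries. Higher decimal positions were possible for the 325 of *rpl1801*Δ, at 3254 CPM or more, and for the 521 and 341 of *ssz1*Δ, at 5214 or more and 3409. The 359 of SPBC16A3.17c could also be 3594 CPM.

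Only *tcg1*Δ, without a protein that binds single-stranded telomeric DNA, was called higher for *gln1*. It had 1814, 2165, 1702 and 1030.4 CPM, with a log2 fold change of 0.73 ± 0.19, and 1 library fell within the wild-type range. The call was lost without its replicate 1, 2 or 3, where the fold change was 0.67, 0.59 and 0.71. Higher decimal positions were possible for the 1814, 1702 and 1030.4 of *tcg1*Δ, at 18144, 17019 and 10304 CPM or more. *gln1* was called lower in 10 of the 19 ribosomal protein deletions and 7 of the 75 others, against 2.55% and 1.19% of comparisons over all transcripts. Its median log2 fold changes there were -0.67 and -0.18. Nearest to the threshold were *rpl2802*Δ, called lower at -0.67 ± 0.18, and *rpl1601*Δ, not called at -0.55 ± 0.15.

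**Figure D3:**
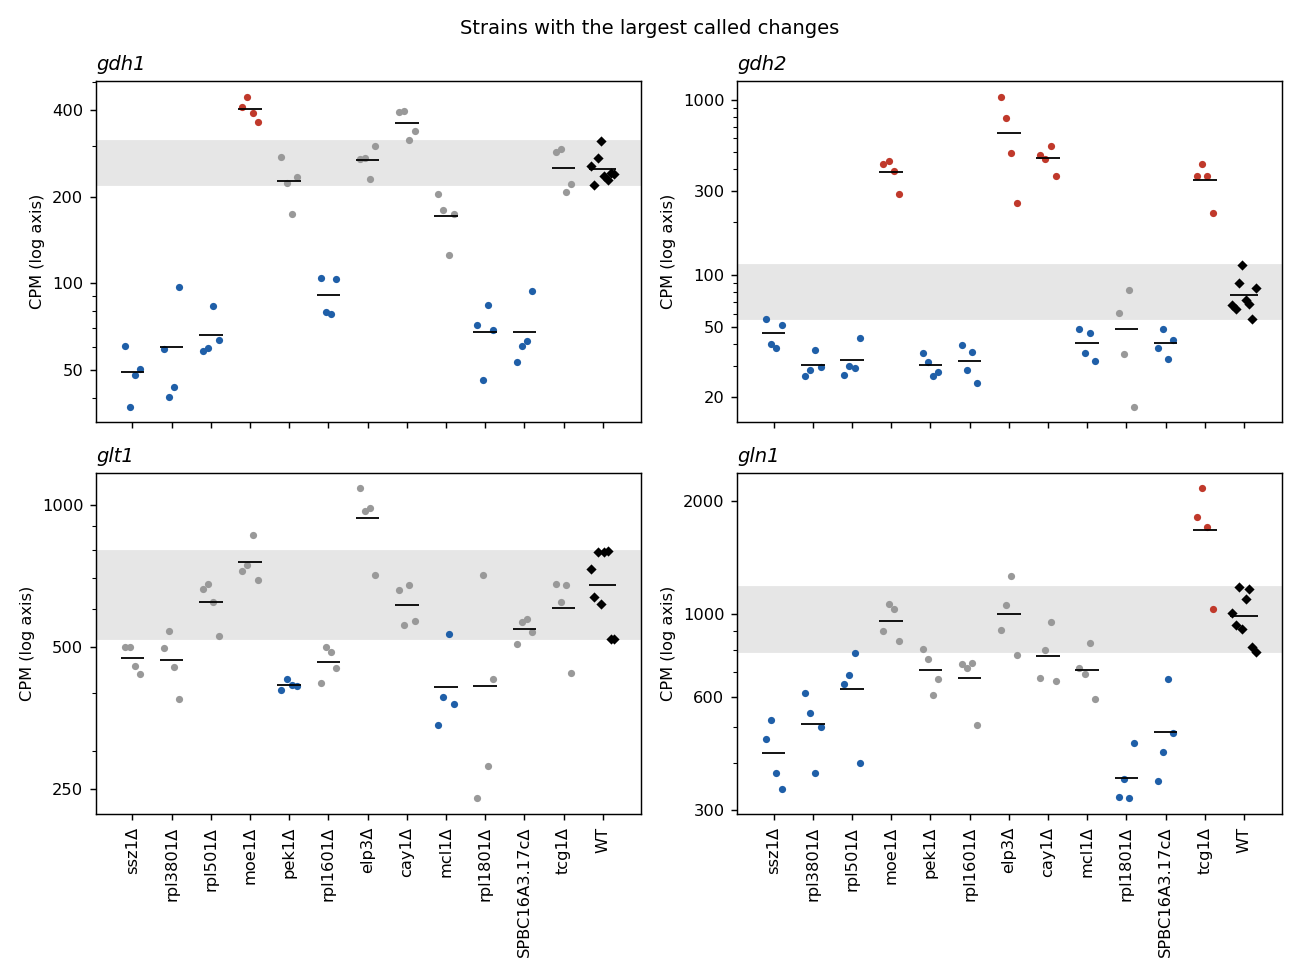
CPM (log axis) of the 4 genes in the 12 strains with the largest called changes, and in wild type at the right; each point is a library, blue where the gene was called lower, red where it was called higher and grey where it was not called, black bars are means and the grey band spans the 8 wild-type libraries. *gdh1* is blue in 6 of the 12 strains and red in 1, and *gdh2* is red in 4.

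The strains with lower *gln1* were nearly all strains with lower *gdh1*. Both were called lower in 16 strains, which is 94.1% of the 17 *gln1* strains and 53.3% of the 30 *gdh1* strains. The exception was *rpl3201*Δ. Over all 94 strains *gdh1* was called lower in 31.9%, and the share shared with *gdh1* by other transcripts is not given here. *gdh1* and *gdh2* were called lower together in 13 strains, and *pap1*Δ, *mcl1*Δ and *pek1*Δ had lower *gdh2* without a call for *gdh1*. In 9 strains *gdh1*, *gdh2* and *gln1* were lower together. *gdh1* was the only one of the 4 called lower in 10 strains, among them *gcn5*Δ, *ada2*Δ, *ngg1*Δ, *air1*Δ and *ath1*Δ. No strain had higher *gdh2* and lower *gdh1*, and 48 strains had no call for any of the 4 genes.

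Over the 94 strain means of log2 CPM, *gdh1* correlated with *gln1* at Pearson's r = 0.70 (Spearman's rho 0.58) and with *gdh2* at 0.61 (rho 0.63). Its r with *glt1* was 0.36 (rho 0.34), the lowest of the 6 pairs, and the other 3 pairs had an r between 0.51 and 0.57. Without the 2 strains farthest from the *gdh1* median, r was 0.66, 0.60 and 0.30. Other genes of nitrogen metabolism, listed below, had an r with *gdh1* between 0.09 (*car3*) and 0.82 (*arg4*). The 0.70 of *gln1* lies within this range, and *asn1* had 0.80. The points share plates and the scaling of the libraries, so these values describe the strains only.

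**Figure D4:**
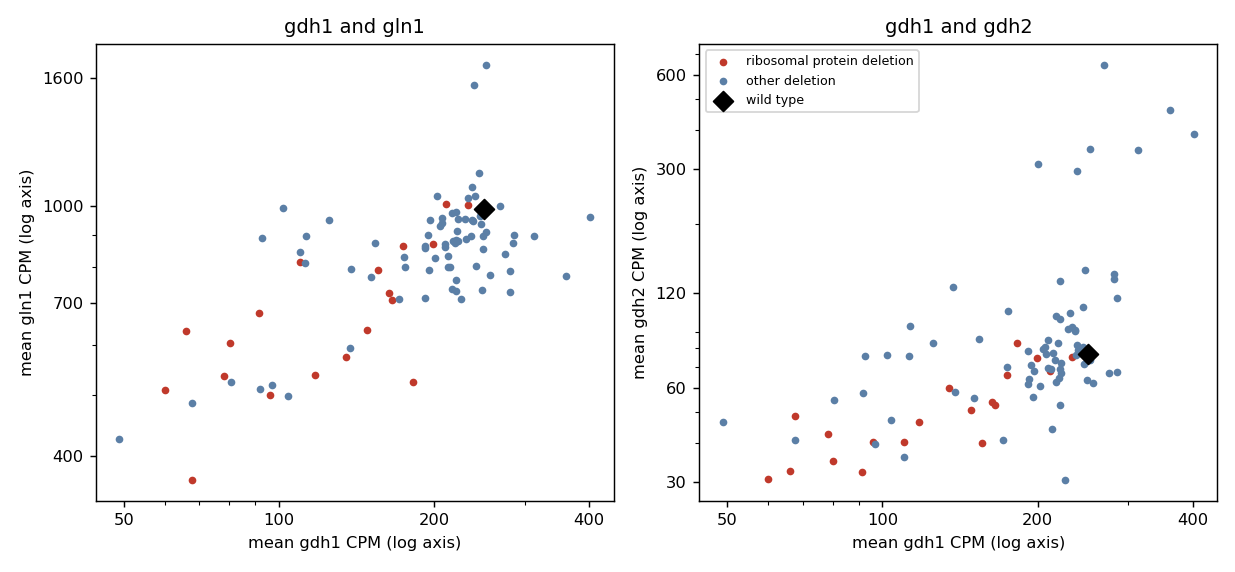
Mean *gln1* (left) and mean *gdh2* (right) against mean *gdh1*, in CPM on log axes, for 94 knockout strains (points, red for ribosomal protein deletions) and wild type (black diamond). Most red points lie below and to the left of wild type, and the 7 strains with high *gdh2* have *gdh1* means between 200.7 and 402 CPM.

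By the same measure, the transcripts most like each gene were sought among 4532 protein-coding genes. For *gdh1* they were SPAC1805.16c (r = 0.89), SPBC30D10.14 (0.88), *hob1* (0.87), the porin gene SPAC1635.01 (0.87) and *pgi1*, glucose-6-phosphate isomerase (0.87). For *gdh2* they were SPBC1271.07c (0.91), SPCC70.08c (0.87), *arg1* (0.85) and *arg12* (0.82), which make arginine, and *aes1* (0.82). For *glt1* they were *his2* (0.81) and *his3* (0.80) of histidine synthesis, the ATP citrate lyase gene SPAC22A12.16 (0.79), SPCC1827.06c (0.79) and *leu1* of leucine synthesis (0.78). For *gln1* they were *shm1*, serine hydroxymethyltransferase (0.89), *met17* (0.85), *arg11* (0.84), the thioredoxin reductase gene *trr1* (0.83) and *yrs1* (0.83). All are over 94 strains, with the limits given above.

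For 25 other genes of nitrogen metabolism, the 12 strains named above were read one by one. In *ssz1*Δ, 8 of 25 were called lower and none higher, with a median log2 fold change of -0.48 against 0.03 over all transcripts, of which 6.26% were called lower. *rpl3801*Δ also had 8 lower (4.67% of all transcripts), *rpl501*Δ had 9 (4.33%), and *rpl1601*Δ had 5 (2.92%). *rpl1801*Δ had 11 lower, with 9.66% of all transcripts lower, and the libraries labelled SPBC16A3.17c had 6 of 24 tested (5.39%). *mcl1*Δ had 4 lower (3.71%), and the libraries labelled *pek1*Δ had 3 (2.26%). In these 8 strains no listed gene was called higher, and the median of the list was between -0.68 in *rpl1801*Δ and -0.18 in the *pek1*Δ libraries.

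The 4 strains with higher enzyme genes had no listed gene lower. *cay1*Δ had 9 of 25 higher, with 5.23% of all transcripts higher, *moe1*Δ had 7 (4.62%), the *elp3*Δ libraries had 5 (2.56%) and *tcg1*Δ had 4 (3.62%). The median log2 fold change of the list in these strains was 0.28, 0.30, 0.004 and 0.19. Over all transcripts it was 0.01, -0.002, 0.005 and 0.02, so in the *elp3*Δ libraries the median of the list did not differ from that of all transcripts. The list was chosen with earlier results of these data known, and these shares describe it.

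In all, 5 listed genes were called in both directions in 3 or more of these strains. *arg4*, a subunit of carbamoyl phosphate synthase, was lower in 8, with log2 fold changes from -1.69 in *ssz1*Δ to -0.87 in *pek1*Δ. It was higher in *elp3*Δ, *cay1*Δ and *moe1*Δ, at 0.93, 1.06 and 1.29. *arg5*, the other subunit, was lower in 7 strains and higher in 4. *asn1*, asparagine synthetase, was lower in 6, down to -1.41 in *rpl1801*Δ, and higher in 3. *idp1*, the isocitrate dehydrogenase that makes 2-oxoglutarate with NADP, was lower in 7 and higher in 3. *caa1*, an aspartate aminotransferase, was lower in 3 and higher in 3. The ornithine aminotransferase gene *car2* was lower in 5 and higher in *tcg1*Δ alone, *maa1*, the other aspartate aminotransferase, was lower in 5, and *idh2* was lower in 3.

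Among the regulators, the GATA factor gene *gaf1* and the TOR regulator *tsc1* were called in none of the 94 strains by limma (6 and 5 strains lower and 0 higher at an unadjusted p under 0.05), *fil1* and *tsc2* in 1, and *gcn2* was called higher in 1. Over all transcripts and strains 1.47% of comparisons were called lower and 2.12% higher, which is about 1 and 2 strains of 94 for a gene. The ammonium transporter *amt1* was called lower in 2 strains and higher in 8, *amt2* lower in 3, and *amt3*, which was tested in 65 strains, lower in 3 and higher in 5. In wild type *amt3* averaged 2.16 ± 0.99 CPM (SD, n = 8), within the range of 0.893 to 2.54 CPM that a count of 0 allows, depending on the library, for counting error only.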

How the data were processed

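Libraries of 94 knockout strains (n = 4 each) and wild type (n = 8) were compared. Per the labels and the methods of the study, the authors aligned the reads with STAR (2.6.1b) to ASM294v2, counted them on genes (both HTSeq 0.9.0 and Subread 1.6.2 are named, with neither the counter nor the use of strand stated) and computed CPM. In the deposited CPM every value of 1 or above lacks its decimal point, and the unit was therefore recorded as other. In each library the values under 1 give the CPM of 1 read (0.298 to 0.848), and every other value was placed so that it is a whole number of reads. Of 2787456 values, 2197484 had no point and 355187 had several possible positions. These were placed by the distance to the median of the libraries of the same strain (spread 0.8 on the log2 scale) and by a preference for smaller values. This rule was revised once, after restored values, including those of the 4 genes, had been seen to be placed 10-fold too low in high genes. Of 1536 values of the 4 genes, 298 had several positions and 2 were placed differently when the strain was left out.

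CPM below a floor just above 1, as in the study, were removed, and a transcript had to keep 3 of the 4 knockout values and 6 of the 8 wild-type values. No value was imputed. The log2 CPM of a strain, with no pseudocount, were set against those of wild type with limma (3.58.1) in R (4.3.3). Calls needed a log2 fold change of at least 0.6 and p of at most 0.005, the limits of the study, which names no test for transcripts. The fit and the restoration were run on simulated data built from the restored levels. Such data could not show a misplaced decimal point shared by all libraries of a gene. Alternatives changed the pseudocount, floor, scaling, test, p adjustment, wild-type well, plate block, decimal rule and libraries left out.

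The members and lists were chosen with earlier results of these data known. The named strains are, for each gene, the 3 with the lowest and the 3 with the highest log2 fold change among those called, and the similar genes are the 5 with the highest Pearson's r. Replicate numbers were read as plates, following a supplementary legend of the study. Same-numbered libraries deviated together from their group means (median r 0.27 over 4593 transcripts, with 360 of 376 strain and wild-type pairs above 0.1). Between numbers the median r was -0.10, which centring on the group means itself pushes below 0. This shows a batch that goes with the number, and cannot show that the batch is a plate. With numbers read as plates, libraries of 1 number share a plate, and p-values measure the spread between plates and cultures. Both wild-type libraries of well A2 with number 2 left the fits that need the plate. The authors' scaling of the libraries ranged from 0.768 to 1.45 of a scaling by the reads on genes, and the proteomes were not analysed here. The RefSeq tables matched 6846 of the 7259 identifiers, 5106 of them protein-coding.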

Additional observations from a re-analysis of the deposited data

How the results depend on the processing

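Across the alternatives, the *gdh1* count of 30 lower strains stayed between 24 and 33. The replicate block with the plate gave 30 lower and 1 higher strains for *gdh1*, 15 and 12 for *gdh2*, 5 and 0 for *glt1*, and 18 and 1 for *gln1*, and the same libraries unblocked gave 0 higher for *gln1*. Of all calls of the 4 genes, the block ended only that of *gdh2* in *ssz1*Δ. With the reads on genes as the library size, 2 strains had higher *gdh1*, 9 lower *gdh2*, 0 lower *glt1*, 9 lower and 2 higher *gln1*, and the *glt1* log2 fold changes of -0.44 in *mcl1*Δ and -0.43 in *pek1*Δ were not called. Median-centred libraries gave 5 lower for *glt1*, and limma-voom on reads, or 1 fit over all groups, gave 2 higher for *gln1*. With wild-type well A1 alone, 10 had lower *gdh2* and 0 higher *gln1*. With well A2 alone, 0 had lower *glt1* and 0 higher *gln1*. Leaving out 1 library or replicate number gave 27 to 33 lower and 1 higher for *gdh1*, 14 to 18 lower and 9 to 12 higher for *gdh2*, 2 to 6 lower and 0 higher for *glt1*, and 14 to 17 lower and 0 to 2 higher for *gln1*. The extremes of *glt1* came without wild-type replicate 4 of well A1 or A2 (6) and without knockout replicates 2 or 3 (4), and those of *gln1* higher without knockout replicates 1, 2 or 3 (0) and 4 (2). In the 27 strains whose deleted gene lay below wild type, chosen after seeing the data, 16 had lower *gdh1*, 4 had higher *gdh2*, 1 had lower *glt1* and 11 had lower *gln1*. The decimal points placed without the strain moved *gdh1* in *rpl3801*Δ to -0.48, and its count to 29. The causes of these changes were not tested. Each value of the 4 genes rests on at least 38 reads, and how depth bears on the calls was not tested.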
